A study of Mus musculus with 6 samples.

Results

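Transcripts of 7 genes of secreted growth factors and of the proteins that bind them were followed on 6 Affymetrix arrays of MLE-15 cells. The genes were Fgf2, Vegfa, Btc and Bmp2, which encode ligands, and Fst, Igfbp3 and Igfbp6, which encode binding proteins. They were chosen by name, with earlier results of these data known, and probe sets were matched by the RefSeq accession that each name holds. Each of the 7 had 1 probe set, so these were 7 of the 1246 probe sets in the table and 7 of its 908 named genes. MLE-15 is a mouse lung epithelial line from tumours of mice in which the surfactant protein C promoter drove the SV40 large T antigen. It is a single immortalised line. The 3 control arrays held RNA of untreated MLE-15 cells and the 3 PMA arrays held RNA of MLE-15 cells given 10 nM PMA for 24 h. PMA, phorbol 12-myristate 13-acetate, activates protein kinase C. The series asked about expression of glycan-modifying enzymes and mucins and their induction by the phorbol ester, and growth factors were not part of that question.

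Growth factors act through receptors at the cell surface, and their reach is set by proteins that hold them outside the cell. FGF2 and VEGFA bind heparan sulfate and signal through receptor tyrosine kinases, betacellulin (Btc) is a ligand of the EGF receptor family, and BMP2 signals through serine/threonine kinase receptors to SMAD proteins. Follistatin (Fst) sequesters activins and some BMPs, IGFBP3 carries most circulating insulin-like growth factor, and IGFBP6 binds IGF2 in preference to IGF1. In the lung these factors take part in branching, in upkeep of the capillary bed and in epithelial repair.

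Stretches of 250 bases upstream of the annotated start were read for the members from the RefSeq promoter table of mouse build GRCm38.p6, in which 5 of the 7 genes were matched. Those of Igfbp3 and Igfbp6 are shown because these genes had the widest opposite differences between arrays, and that of Fgf2 because it alone differed with PMA in 1 direction in all 3 replicate numbers. Each is written 5′ to 3′ on the strand of the gene, and capitals mark a GC box (GGGCGG, Fgf2) or a TATATA element (Igfbp3).
Fgf2 (chr3:37348403-37348652, plus strand): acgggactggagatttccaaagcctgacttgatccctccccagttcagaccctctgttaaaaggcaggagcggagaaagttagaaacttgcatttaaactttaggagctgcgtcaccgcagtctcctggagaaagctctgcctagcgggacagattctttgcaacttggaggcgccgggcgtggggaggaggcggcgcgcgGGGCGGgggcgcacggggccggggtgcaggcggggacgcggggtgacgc
Igfbp3 (chr11:7213924-7214173, minus strand): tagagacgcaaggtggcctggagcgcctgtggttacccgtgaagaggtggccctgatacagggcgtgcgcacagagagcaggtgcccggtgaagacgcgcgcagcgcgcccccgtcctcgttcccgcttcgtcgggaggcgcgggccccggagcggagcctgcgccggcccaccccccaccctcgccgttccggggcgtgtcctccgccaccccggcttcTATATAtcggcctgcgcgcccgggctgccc
Igfbp6 (chr15:102143936-102144185, plus strand): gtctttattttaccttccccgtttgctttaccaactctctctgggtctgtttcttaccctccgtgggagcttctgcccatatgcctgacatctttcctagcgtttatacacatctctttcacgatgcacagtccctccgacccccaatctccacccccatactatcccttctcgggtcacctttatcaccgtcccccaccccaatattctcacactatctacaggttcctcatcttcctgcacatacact
The GC box of Fgf2 began 49 bases upstream of the start and the TATATA of Igfbp3 began 30 bases upstream. On both strands GGGCGG occurs in 32.7% of the 32851 promoters of this length in the table, and TATATA occurs on the gene's strand in 5.25%. The AP-1 motif TGANTCA, which phorbol esters act through in many cells, was searched on both strands and was in none of the windows of the 5 matched genes, against 6.75% of all promoters. ACGTG, the core of the hypoxia response element, was in 1 window of 1 matched gene, Vegfa, against 16.6% of all promoters on both strands. That window (chr17:46025164-46025413, minus strand) belongs to a second annotated start, downstream of the first listed start (window chr17:46032378-46032627). The window at the first listed start held no such match. TATAAA on the gene's strand was in none of the windows of the 5 matched genes, against 7.59%. Vegfa also had 2 copies of GGGCGG upstream of its first listed start. The Igfbp3 window was 73.2% G and C and the Igfbp6 window 49.6%, beside a median of 52.4% over the table. These are matches of letters in a short window only, and the array values do not measure binding.

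Values are RMA values on the log2 scale, so a difference of 1 is a doubling of the measured signal. They rank arrays for 1 probe set and do not rank genes by transcript amount. Where a value is set beside an array's median or quartile, it says only how dim that signal is. Array medians lay between 5.64 and 5.71. The arrays with replicate number 1, 1 in each group, stood apart from the other 4. The median absolute difference was 0.184 to 0.208 between a number 1 array and any other array, with 110 to 125 probe sets more than 2-fold apart. It was 0.061 to 0.089 among the arrays of numbers 2 and 3, with 0 such probe sets, and 0.10 between the pair of number 1 arrays, with 1. The labels do not say what the number stands for. Their titles name number 1 as MLE-15CTL and MLE-15PMA, and numbers 2 and 3 as MLE15CTL or MLE15PMA followed by A and B. What this difference in naming stands for is not given. Whether replicates are separate cultures is also unstated, so the p-values reflect the spread among these samples alone, and that spread may be technical. The 7 genes are therefore given with PMA set against control within each number, and with number 1 set against numbers 2 and 3. Of 13 listed lung epithelial markers, Sftpa1 and Sftpd were measured. Sftpa1 ran from 3.29 to 3.89, under each array's lower quartile (4.32 to 4.43), and Sftpd from 5.28 to 5.50, under each array's median. No presence call could be made for either, so the values do not show that these markers of the labelled cell type were expressed.

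**Figure D1:**
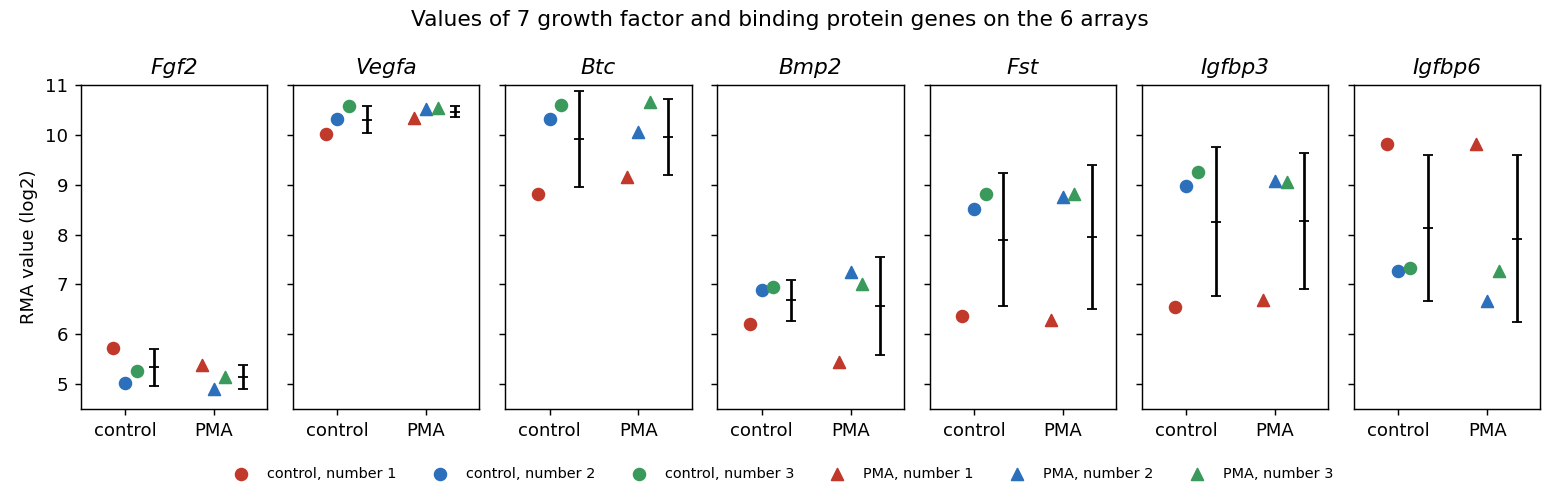
RMA values (log2, vertical axis) of the 7 genes in control (circles) and PMA (triangles) arrays, coloured by replicate number, with the mean and SD of each group of 3 as a black bar. Number 1 lies far below numbers 2 and 3 for Fst and Igfbp3, near 6.3 to 6.7 against 8.5 to 9.3, and far above them for Igfbp6, while control and PMA cover like ranges.

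Among the ligands, Fgf2, a heparan sulfate-bound mitogen, stood at 5.73, 5.01 and 5.26 in control arrays 1, 2 and 3 and at 5.39, 4.91 and 5.15 in PMA arrays 1, 2 and 3. The PMA array was the lower one in each number, but the groups overlapped. Control averaged 5.34 ± 0.36 (SD, n = 3) and PMA 5.15 ± 0.24. PMA minus control came to -0.19 log2 units (SE 0.22), and by number it was -0.34, -0.11 and -0.11. By limma with Benjamini-Hochberg adjustment over all 1246 probe sets it did not pass (adjusted p = 0.999). With the replicate number as a block the limma unadjusted p was 0.0312 and the adjusted p = 0.992, so the call was the same. Its probe set carries the suffix s, which marks probes that can bind several transcripts. Apart from control 1, its values lay under each array's median, and no presence call could be made.

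Vegfa, which drives growth and permeability of blood vessels, stood at 10.02, 10.31 and 10.57 in control arrays and at 10.34, 10.51 and 10.55 in PMA arrays. Control 1 was the lowest and control 3 the highest of the 6, so the PMA arrays lay inside the control range. The means were 10.30 ± 0.27 and 10.47 ± 0.11 (SD, n = 3 each), and the difference was 0.16 (SE 0.15), with 0.32, 0.20 and -0.025 by number. It did not pass by limma (adjusted p = 0.999).

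Btc, a ligand of EGF receptor family members, stood at 8.81, 10.32 and 10.59 in control and at 9.15, 10.06 and 10.66 in PMA arrays. Both number 1 arrays were low, and the other 4 spanned 0.60 log2 units. The means were 9.91 ± 0.96 and 9.96 ± 0.76 (SD, n = 3 each). The difference was 0.048 (SE 0.61, or 0.11 with the replicate number as a block), with 0.35, -0.27 and 0.066 by number. The sign of the Btc difference thus changed between numbers.

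Bmp2, a bone morphogenetic protein, stood at 6.20, 6.89 and 6.96 in control and at 5.43, 7.25 and 7.02 in PMA arrays. Among the 7 genes it showed the widest gap between the number 1 arrays, 0.77 log2 units, more than the 0.365 spanned by all 4 other arrays. PMA was lower than control in number 1 by 0.77 and higher in numbers 2 and 3 by 0.365 and 0.059. The value of 5.43 in PMA 1 lay under that array's median of 5.71. Over all arrays the means were 6.68 ± 0.42 and 6.57 ± 0.99 (SD, n = 3 each). The difference was -0.12 (SE 0.53, or 0.17 with the replicate number as a block).

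Whether the PMA difference depended on the number was tested with an interaction term, the PMA difference in number 1 minus that in numbers 2 and 3. For Bmp2 this was -0.98 log2 units (SE 0.17), with a limma unadjusted p of 0.000494 and an adjusted p = 0.308, so it did not pass over all probe sets. Of all probe sets 0.0803% passed, which was 1, uc009kma.1_psr1_at, named after its value was seen and not matched to a gene. An unadjusted p under 0.05 was met by 5.62% of probe sets and by Bmp2 alone among the 7 genes. In fits with 1 of the 4 arrays of numbers 2 and 3 left out, Bmp2 passed each time, with limma adjusted p from 0.000856 (without PMA 3) to 0.0248 (without PMA 2), but such a fit leaves a single residual degree of freedom per probe set, and 2 to 18 of the 1246 probe sets passed in these fits. The spread in each of these fits comes from numbers 2 and 3 alone, since number 1 has 1 array in each group. Btc (0.75) and Igfbp6 (0.64) passed only without PMA 3 (adjusted p = 0.0483 for each by limma). With all arrays, the other 6 genes had interaction estimates from -0.23 to 0.45 and a limma adjusted p = 0.830 each. Control 1 and PMA 1 are single arrays, so either array and the number cannot be told apart here.

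Among the binding proteins, Fst, the activin-binding follistatin, stood at 6.37, 8.51 and 8.81 in control and at 6.28, 8.75 and 8.80 in PMA arrays. The number 1 pair differed by 0.087, and the other 4 arrays spanned 0.30, so 2 tight sets lay more than 2 log2 units apart. With PMA the difference was 0.050 (SE 0.97, or 0.079 with the replicate number as a block), and by number it was -0.087, 0.24 and -0.0064.

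Igfbp3, the main IGF carrier of serum, stood at 6.54, 8.97 and 9.26 in control and at 6.69, 9.07 and 9.06 in PMA arrays. It was low in both number 1 arrays and high in the other 4, as Fst was. Its PMA difference was 0.015 (SE 1.00, or 0.082 with the replicate number as a block), with 0.15, 0.094 and -0.20 by number. That ranked 1028 of 1246 probe sets by absolute size.

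Igfbp6, which favours IGF2, showed the opposite layout, at 9.81, 7.26 and 7.32 in control and at 9.82, 6.66 and 7.27 in PMA arrays. The number 1 arrays differed from each other by 0.015 and lay above all others. PMA 2 was the lowest array, 0.60 below control 2, while numbers 1 and 3 gave 0.015 and -0.054. The difference over all arrays was -0.21 (SE 1.10, or 0.11 with the replicate number as a block). It was the 18th largest in absolute size, and most of it came from number 2.

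None of the 7 genes passed for PMA by limma with Benjamini-Hochberg adjustment, with 0 also at an unadjusted p under 0.05, where 0% of all probe sets passed the adjustment and 0.321% had such an unadjusted p. With the replicate number as a block 0 of the 7 and 0% of all probe sets passed, and Fgf2 was the 1 of 7 at an unadjusted p under 0.05, beside 3.37% of all probe sets. PMA and control arrays did not overlap in 0 of the 7, against 3.37% of all probe sets. The sign was the same in all 3 numbers in 1 of the 7, Fgf2, against 23.1% of all probe sets. With number 1 left out of both groups, 0 of the 7 and 0 of all probe sets passed. The blocked fit gave narrower intervals, which rest on limma's moderated SE, drawn in part from the spread of all probe sets. They can be too narrow for a gene whose PMA difference varied between numbers, as that of Bmp2 did. Its 95% intervals for the mean difference, taken as 1 PMA difference common to the numbers, reached from -0.51 (Bmp2) to 0.35 (Vegfa) over the 7, or ratios of 0.702 to 1.27. Single numbers could lie outside these limits, as Bmp2 did in number 1 (-0.77) and Igfbp6 in number 2 (-0.60). Without the block the interval of Igfbp6 ran from -2.96 to 2.53, that of Igfbp3 from -2.49 to 2.52 and that of Fst from -2.37 to 2.47. Those of Fgf2 (-0.74 to 0.36) and Vegfa (-0.22 to 0.55) stayed within 1 log2 unit of 0.

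**Figure D2:**
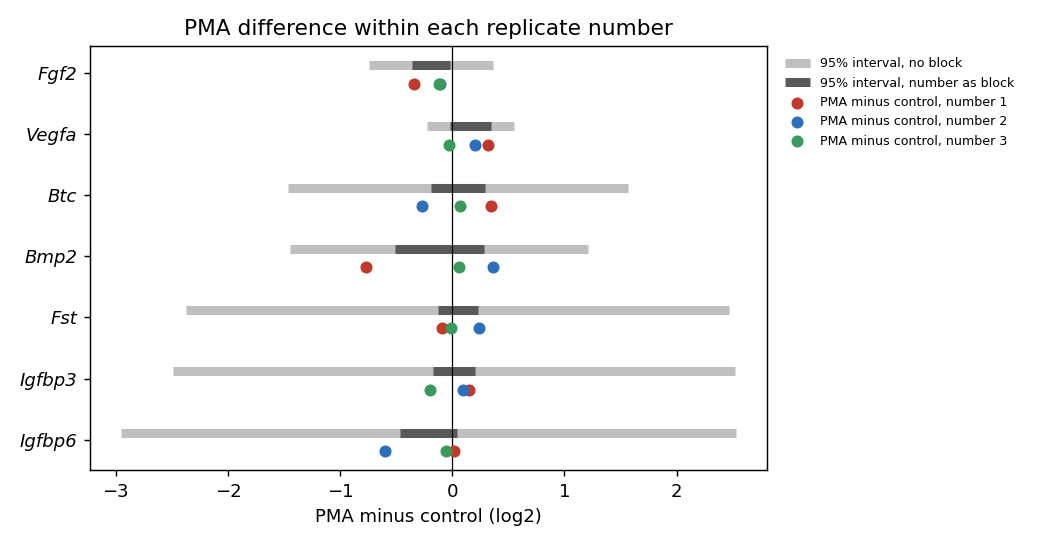
PMA minus control in log2 units (horizontal axis) for each gene, with points for replicate numbers 1, 2 and 3 and bars for limma's 95% interval without (light) and with (dark) the number as a block. The light bars of Fst, Igfbp3 and Igfbp6 reach past 2 log2 units on either side of 0, the dark bars of all 7 genes lie between -0.51 and 0.35, and only that of Fgf2 leaves out 0.

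The difference between number 1 and numbers 2 and 3 is a description for these genes, since it was known when they were chosen, and no p-value of it is given for them. Igfbp6 had a mean of 9.82 with number 1 and of 7.13 with numbers 2 and 3, a difference of 2.69 (SE 0.14), or 6.45-fold higher. Igfbp3 averaged 6.62 and 9.09, a difference of -2.47 (SE 0.092), or 5.56-fold lower. Fst averaged 6.33 and 8.72, a difference of -2.39 (SE 0.093), or 5.25-fold lower. In absolute size these were the 17th, 27th and 29th of 1246 probe sets, and the binding proteins thus held the widest differences of the 7 genes, in both directions.

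The ligands had smaller differences. Btc averaged 8.98 in number 1 and 10.41 in the other arrays, a difference of -1.43 (SE 0.16), or 2.69-fold lower. Bmp2 averaged 5.82 and 7.03, a difference of -1.21 (SE 0.18), or 2.31-fold lower. Its size depended on the group, at -0.72 among control and -1.70 among PMA arrays. Fgf2 was higher in number 1 by 0.47 (SE 0.10), at 5.56 against 5.08. Vegfa was lower by 0.30 (SE 0.090), at 10.18 against 10.48, and it was the gene of the 7 whose number 1 arrays overlapped the others, since PMA 1 at 10.34 lay above control 2 at 10.31.

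Both number 1 arrays lay outside the range of the other 4 in 6 of the 7 genes, against 55.9% of all probe sets. They lay above in 2 (Fgf2 and Igfbp6), against 37.8%, and below in 4 (Btc, Bmp2, Fst and Igfbp3), against 18.1%. These shares are read no further, since the layout was known when the genes were chosen. The median absolute difference over all probe sets was 0.17, and Fgf2 and Vegfa ranked 293 and 416 of 1246. Over all probe sets the differences measured in control arrays and in PMA arrays correlated at 0.956, a description in which the points share arrays. For the 7 genes the control and PMA values were 0.59 and 0.36 (Fgf2), -0.42 and -0.18 (Vegfa), -1.65 and -1.20 (Btc), -2.29 and -2.49 (Fst), -2.58 and -2.37 (Igfbp3) and 2.52 and 2.86 (Igfbp6), beside those of Bmp2 above. The sign was thus shared by both groups in each of the 7 genes.

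**Figure D3:**
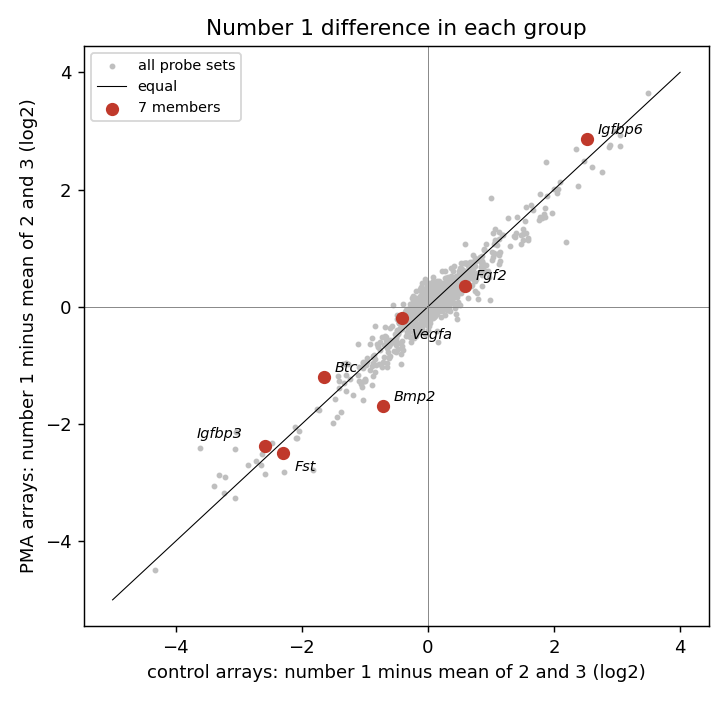
For every probe set (grey) and the 7 genes (red), the number 1 value minus the mean of numbers 2 and 3 in log2 units, among control arrays (horizontal axis) and among PMA arrays (vertical axis), with the line of equal values. Fst, Igfbp3 and Igfbp6 lie near the line beyond 2 log2 units, and Bmp2 lies below it, at -0.72 and -1.70.

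Patterns most like each member were sought among the named genes, by the root mean square distance between values centred on each gene's own mean over the 6 arrays. For Fst the nearest was Igfbp3 (distance 0.11 log2 units) and then Angptl4 (0.13), a secreted angiopoietin-like protein that inhibits lipoprotein lipase. For Igfbp3 the nearest was Angptl4 (0.096) and then Fst. Angptl4 stood at 6.56, 9.02 and 9.05 in control and at 6.60, 8.88 and 8.96 in PMA arrays. It was thus low in number 1 like both of them. Nearest to Btc was Areg (0.14), amphiregulin, another EGF receptor ligand, at 11.87, 13.24 and 13.37 in control and 12.03, 13.10 and 13.32 in PMA arrays. Next to Btc came Slc35a3 (0.16), the transporter of UDP-N-acetylglucosamine. Bmp2 was nearest to the heparan sulfate 3-O-sulfotransferase Hs3st1 (0.17) and to Rab7 (0.18), and Fgf2 to Dsel (0.080) and to the sulfotransferase Chst7 (0.094). The probe sets of Slc35a3, Hs3st1 and Dsel carry the suffix s, as that of Fgf2 does. Vegfa was nearest to the chemokine receptor Cxcr2 (0.077), whose probe set carries the suffix x, and to C1galt1c1 (0.081), the chaperone of core 1 O-glycan synthesis. Igfbp6 was nearest to Slc35f3 (0.22) and to Col18a1 (0.23), a heparan sulfate proteoglycan of basement membranes. Within the 7 genes, Fst and Igfbp3 were the closest pair at 0.11, and Igfbp3 and Igfbp6 the farthest at 2.44. These distances rest on 6 arrays in which number 1 sets most of the spread.

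Other genes of the same pathways were taken from lists of 186 genes besides the 7, of which 109 were measured. For PMA 0 of the 109 passed the adjustment by limma and 0 reached an unadjusted p under 0.05, with a median difference of 0.011 beside 0.0033 over all probe sets. In limma's blocked fit 0 passed once adjusted, while an unadjusted p under 0.05 was met by 4, Tgfbr3 (0.0163), Pdgfrb (0.0297), Junb (0.0399) and Angpt1 (0.0406), where 3.37% of all probe sets had such a p. Of the 109 the PMA mean was higher in 60 and lower in 49, beside 651 and 595 of all probe sets. By list the higher and lower counts were 15 and 13 for FGF, VEGF and PDGF ligands and 0 and 2 for EGF family ligands. They were 17 and 7 for the TGF-β superfamily list and 7 and 4 for other growth factors. They were 11 and 12 for receptors, 1 and 7 for binding proteins and antagonists, 9 and 3 for heparan sulfate proteoglycans and 0 and 1 for targets. Between number 1 and the other arrays 39 were higher and 12 lower by limma at an adjusted p under 0.05, 46.8% beside 41.7% of all probe sets (27.5% higher and 14.1% lower), with a median difference of 0.086 beside 0.079.

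Among other ligands, 7 of 28 measured FGF, VEGF and PDGF genes were called higher in number 1 and 0 lower, 25% beside the 41.7% of all probe sets. Pdgfa, a mesenchymal mitogen, differed by 1.20 (SE 0.066) and Fgf18 by 0.93 (SE 0.091). Both had number 1 arrays above the other 4, as Fgf2 did. With PMA the differences of largest absolute size there were 0.20 in Fgf13, an FGF-related protein that stays inside the cell, and -0.16 in Fgf18, neither passing. Of the EGF family 2 of 10 listed genes besides Btc were measured. Areg differed by -1.31 (SE 0.091) in number 1 and passed, and Hbegf, heparin-binding EGF-like growth factor, by -0.14 (SE 0.080) and did not. Their PMA differences were -0.013 and -0.097. The TGF-β superfamily list had 24 of 33 genes measured, 9 called higher in number 1 and 4 lower (54.2%). These counts include Bmp1, which is not a ligand of that family but a protease that processes procollagen and chordin. Bmp1 differed by 1.35 (SE 0.079), Bmp8a by 0.93 and Bmp6 by -0.73. Bmp6 was thus lower in number 1, like Bmp2. With PMA, Bmp6 (0.075) and Gdf10 (-0.072) led that list without passing. Among 11 measured other growth factors, 3 were called higher and 1 lower in number 1 (36.4%). Gdnf, a neurotrophic factor, differed by 2.11 (SE 0.075) and Angpt1, the ligand of the Tie2 receptor, by 1.69 (SE 0.12). With PMA, Angpt1 differed by 0.28 (SE 0.70) and Igf1 by -0.14 (SE 0.072), neither passing.

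Of 36 listed receptors 23 were measured, with 10 called higher and 3 lower in number 1, 56.5% beside the 41.7% of all probe sets. Tgfbr3, the TGF-β co-receptor betaglycan, stood at 8.89, 6.04 and 5.82 in control and at 9.10, 6.21 and 6.003 in PMA arrays, a difference of 2.98 (SE 0.087) for number 1. Acvr2a, an activin receptor, differed by 1.07 (SE 0.094). Its ligands include activins, which follistatin binds, and a link between the differences of Acvr2a and Fst was not tested. With PMA, Pdgfrb differed by -0.22 (SE 0.33) and Tgfbr1 by 0.19 (SE 0.11), neither passing. Of 27 further binding proteins and antagonists 8 were measured, 4 called higher in number 1 and 2 lower (75%). Igfbp5, another IGF-binding protein, stood at 10.02, 12.28 and 12.34 in control and at 9.59, 12.45 and 12.37 in PMA arrays, a difference of -2.55 (SE 0.11) for number 1. It was low in number 1 as Igfbp3 was. Igfbp2 differed by 0.94 (SE 0.076), the direction of Igfbp6. With PMA these differed by -0.077 and -0.073, neither passing. Of 13 heparan sulfate proteoglycans, which present FGF and VEGF proteins at the cell surface and in matrix, 12 were measured, 6 called higher and 0 lower in number 1 (50%). Col18a1 differed by 2.52 (SE 0.084) and Agrn, agrin, by 1.08 (SE 0.069). With PMA, Gpc2 (-0.16) and Gpc1 (-0.16) led without passing. Of 19 listed targets and feedback genes Junb, an AP-1 subunit, was the 1 measured. It was lower in number 1 by 0.91 (difference -0.91, SE 0.067) and differed by -0.16 (SE 0.37) with PMA.

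**Figure D4:**
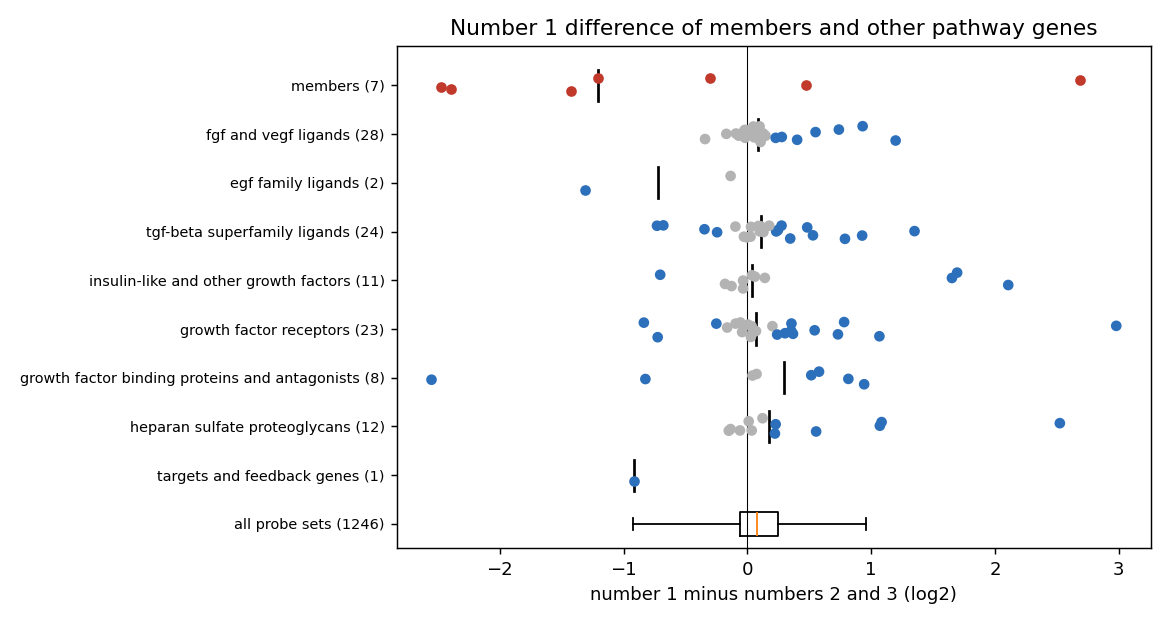
Number 1 minus numbers 2 and 3 in log2 units (horizontal axis) for the 7 genes and 8 lists of other pathway genes, with the number of measured genes in parentheses, medians as black ticks, the 7 genes in red, and list genes in blue at a limma adjusted p under 0.05 and in grey above it. The box shows all 1246 probe sets (quartiles, whiskers at percentiles 5 and 95); Fst, Igfbp3 and Igfbp6 of the 7 and Igfbp5, Tgfbr3 and Col18a1 of the lists lie beyond 2 log2 units.

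Of the lung epithelial markers, Sftpa1 was called higher in number 1 (0.52, SE 0.069), at values under each array's lower quartile. Sftpd (0.13, SE 0.077) did not pass. Some markers of other cells also differed between number 1 and the other arrays, where 41.7% of all probe sets were called. Of 8 endothelial markers 4 were measured, 3 called lower and 1 higher in number 1, and their mean value was 6.07 to 6.08 in number 1 and 6.84 to 6.97 in the other arrays. Pecam1 differed by -1.37, Vcam1 by -1.31, Sele by -1.13 and Selp by 0.39. Of 14 leukocyte markers 5 were measured, 2 called lower (40%), Mrc1 at -2.74 and Ccr7 at -3.22, and the mean was 4.49 to 4.70 against 5.71 to 5.79. The other 3, Adgre1, Siglec1 and Siglech, differed by -0.030 to 0.16 and did not pass. Of 10 genes listed as fibroblast markers, not all of them particular to fibroblasts, 6 were measured. In number 1, 3 were called higher, Cspg4 at 2.90, Vcan at 1.15 and Pdgfrb at 0.78, and 1 lower, Dcn at -2.31. The mean of the 6 was 6.04 to 6.18 in number 1 against 5.54 to 5.83 in the other arrays. Pdgfra (0.20) and Lum (0.074) did not pass. Ptprc, Cdh5 and Col1a1, which define leukocytes, endothelium and fibroblasts, were listed but not analysed here. Markers within a list thus went both ways for endothelium and fibroblasts. The part of other cells in the number 1 differences of the 7 genes was not tested. All 6 arrays are labelled MLE-15, and the values do not show which cells these transcripts came from. They also cannot tell a change in the number of cells from a change in RNA per cell.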

How the data were processed

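Gene expression was measured on 6 Affymetrix arrays of MLE-15 cells, 3 control and 3 PMA. The authors deposited log2 values made with RMA, per the submitters' processing notes; RMA corrects background, quantile-normalizes arrays and summarises probe sets, so a shift of all transcripts one way would not show. The sources used here give no RMA version, array name or filter. The dose and time come from the series design text. Of the 1246 probe sets 962 were named through their RefSeq accession in the gene table of GRCm38.p6, and 284 were not. For a gene with several probe sets the one of highest mean was used.

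Differences were fitted with limma 3.58.1 in R 4.3.3 (lmFit, eBayes), with Benjamini-Hochberg adjustment over all probe sets, a threshold of 0.05 and limma's moderated SE. Deviations from group means of arrays with the same number correlated across probe sets at 0.956, 0.815 and 0.912, all over 0.1, so the number was also fitted as a block. The difference between numbers 2 and 3 in control correlated at 0.041 with that in PMA arrays, so that pairing rests on number 1. The members and lists were chosen with earlier results of these data known. Named genes are the 7 members, their 2 nearest patterns, and in each list the 2 genes of largest absolute number 1 and PMA difference; measured markers are named by list. A listed marker is not reported here. The number of arrays limits the precision.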

Additional observations from a re-analysis of the deposited data

How the results depend on the processing

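For PMA, 0 of the 7 genes and 0 probe sets passed by limma in each alternative run: the replicate block, 1 term for number 1, number 1 left out, gene means, a filter on dim probe sets, median centring, quantile normalization, a trended robust prior and each array left out (4 probe sets at an unadjusted p under 0.05 in the reported fit, 42 with the replicate block). The replicate block changed no call. When both number 1 arrays were dropped the PMA difference reversed to -0.10 in Btc, 0.21 in Bmp2 and -0.054 in Igfbp3. With 1 array left out, which leaves the numbers unequal between the groups, the PMA difference ran from -0.35 to 0.0085 in Fgf2, 0.025 to 0.30 in Vegfa, -0.50 to 0.45 in Btc, -0.46 to 0.45 in Bmp2, -0.71 to 0.88 in Fst, -0.84 to 0.81 in Igfbp3 and -1.17 to 0.63 in Igfbp6. For number 1 the signs of all 7 genes were kept in each alternative run. This is description only, since each run kept a number 1 array and the difference was known when the genes were chosen. With 1 array left out it ran from 0.36 to 0.59 in Fgf2 and from -0.42 to -0.18 in Vegfa. Bmp2 moved to -0.72 in control arrays only and to -1.70 in PMA arrays only, which is also its range with 1 array left out. For the interaction, leaving out 1 array gave 2 to 18 called probe sets in place of 1, with values of -1.10 to -0.86 in Bmp2, 0.14 to 0.75 in Btc and 0.041 to 0.64 in Igfbp6. The cause was not tested. Signal over background is unknown, so changes in dim probe sets may be understated.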
